A study of Mus musculus with 6 samples.

Results

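The expression of 9 genes of leukocyte adhesion to the vessel wall was examined in WATs: the selectin genes Selp (P-selectin) and Sele (E-selectin), the ligand gene Selplg (PSGL-1), the adhesion genes Icam1, Icam2 and Vcam1, and the endothelial genes Pecam1, Cdh5 (VE-cadherin) and Vwf. All 9 were found by symbol among the 21456 genes of the deposited table and all 9 passed the filter on low values, which kept genes whose normalized count averaged 10 or more. The genes were chosen by their measured values in the same comparison as well as by their function, so their differences between genotypes are a description and support nothing by themselves. RNA-seq was performed on poly-A-selected RNA of WATs from 3 control mice (Ntsr2 flox/flox, mice 3, 4 and 5) and 3 Ntsr2 AKO mice (Adipoq-cre::Ntsr2 flox/flox, mice 3, 4 and 5), all fed a chow diet. Both groups carry the floxed Ntsr2 alleles, and only the Ntsr2 AKO mice carry Cre. Cre is driven by the adipocyte gene Adipoq, so the endothelial cells, platelets and leukocytes that make these adhesion molecules are not its target cells. The fat depot, age and sex of these mice are not given in the sources used here.

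Leukocytes leave the blood in steps, and each step uses its own adhesion molecules. Selectins on the vessel wall catch passing leukocytes by binding sugar-bearing ligands such as PSGL-1, integrins then hold the cells on ICAM and VCAM proteins, and junction proteins of the endothelium line the way through. In white adipose tissue (WAT), as in other tissues, P-selectin, E-selectin, ICAM-1 and VCAM-1 are induced on endothelium by inflammatory cytokines, while PECAM-1, VE-cadherin, ICAM-2 and von Willebrand factor are made by resting endothelium.

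A normalized count is the reads of a gene over the size factor of its library. Division by the step of the low values returned whole reads for 100% of the values, with totals of 60405373 to 66098226 (control) and 54085088 to 56268725 (Ntsr2 AKO), so that every control library was the deeper. The targeted gene Ntsr2 had 83.8, 64.0 and 152.5 normalized counts in control mice and 3.10, 8.29 and 0 in Ntsr2 AKO mice. The tissue label was checked with 12 adipocyte markers, which summed to 2882430 to 4159750 normalized counts a control mouse and 3428510 to 3665830 an Ntsr2 AKO mouse. The libraries also held skeletal muscle transcripts in unequal amounts. The sum of 12 skeletal muscle markers was 1079, 553 and 3279800 in control mice 3, 4 and 5 and 1598, 105277 and 232625 in Ntsr2 AKO mice 3, 4 and 5. The log2 fold changes of the 9 genes are therefore also given for the 3 mice with little muscle RNA (control 3, control 4 and Ntsr2 AKO 3) and for the 3 mice with much of it. The split did not make muscle RNA equal. Control mouse 5, the only control mouse with much of it, held 3279800 against 105277 and 232625 in Ntsr2 AKO mice 4 and 5. Genotype and muscle RNA cannot be told apart among these 3 mice.

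Among the 9 genes, Selp showed the largest difference between the genotypes, at 27.0% of the control mean in Ntsr2 AKO mice. Icam1 and Sele had lower means in Ntsr2 AKO mice, at 66.6% and 58.5% of the control mean, but each of them had 1 Ntsr2 AKO mouse above the lowest control mouse. Vcam1, Selplg and the 4 constitutive endothelial genes Icam2, Pecam1, Cdh5 and Vwf overlapped widely between the groups, at 82.3% to 108% of the control mean.

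The sequence upstream of the inducible genes is shown first, because cytokine-induced transcription of selectin and ICAM genes is known to run through short elements close to the start of transcription. RefSeq promoters of 300 bases (250 before and 50 after the start, build GRCm38.p6) matched 3 of the 9 genes, all on the plus strand: Sele at chr1:164047984-164048283, Selp at chr1:164115014-164115313 and Icam1 at chr9:21015690-21015989. Selplg, Icam2, Vcam1, Pecam1, Cdh5 and Vwf were not matched. Capitals mark the letters of the motifs that were searched on both strands.
Sele: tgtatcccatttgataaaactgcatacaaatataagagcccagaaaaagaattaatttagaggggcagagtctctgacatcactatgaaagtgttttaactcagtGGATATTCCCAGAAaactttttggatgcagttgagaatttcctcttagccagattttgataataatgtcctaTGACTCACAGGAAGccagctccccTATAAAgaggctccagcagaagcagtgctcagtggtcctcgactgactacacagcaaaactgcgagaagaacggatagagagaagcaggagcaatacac
Selp: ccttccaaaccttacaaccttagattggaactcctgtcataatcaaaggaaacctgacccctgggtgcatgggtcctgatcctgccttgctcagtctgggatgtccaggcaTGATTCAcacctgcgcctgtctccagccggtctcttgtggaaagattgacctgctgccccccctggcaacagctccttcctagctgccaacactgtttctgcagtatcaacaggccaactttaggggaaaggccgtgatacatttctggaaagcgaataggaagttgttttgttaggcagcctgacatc
Icam1: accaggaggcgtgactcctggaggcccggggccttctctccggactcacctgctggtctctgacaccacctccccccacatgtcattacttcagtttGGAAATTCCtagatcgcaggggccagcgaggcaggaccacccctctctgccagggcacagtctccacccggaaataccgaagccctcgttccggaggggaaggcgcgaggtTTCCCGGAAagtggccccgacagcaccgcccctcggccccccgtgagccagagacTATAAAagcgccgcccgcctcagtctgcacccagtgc

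The NF-kB motif was searched as GGANNTTCC. It stood in the promoters of Sele (GGATATTCC, 145 bases before the start) and Icam1 (GGAAATTCC, 153 bases before), and 4.26% of all 32851 promoters in the table held it. The letters were not in the Selp window. The AP-1 motif TGANTCA stood in Selp (TGATTCA, 139 bases before the start) and Sele (TGACTCA, 73 bases before), against 7.81% of all promoters. The STAT motif TTCNNNGAA stood in Icam1 (TTCCCGGAA, 42 bases before the start) and in Sele (TTCCCAGAA, 140 bases before), where it overlaps the NF-kB letters, against 8.30% of all promoters. The ETS motif CAGGAAG stood in Sele, 66 bases before the start (13.3% of all promoters). The TATA box letters TATAAA stood 49 bases before the start of Sele and 13 bases after the RefSeq start of Icam1 (13.6% of all promoters). The CRE motif TGACGTCA and the GATA motif AGATAA stood in none of the 3 windows, against 1.79% and 11.2% of all promoters. Sele and Icam1, whose windows held the NF-kB letters, and Selp, whose window did not, all had the lower mean in Ntsr2 AKO mice. The groups overlapped in Sele and Icam1, and the part of any motif in these levels was not tested. A match of letters is a description and does not show that a factor binds there.

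P-selectin is stored in the granules of endothelial cells and platelets and is brought to the surface within minutes of activation, and in mice its gene is also induced by cytokines. Selp (chromosome 1, 164115264 to 164150026, plus strand, GRCm38, with 16 exons in its longest coding transcript) had 387.5, 539.6 and 470.0 normalized counts in control mice 3, 4 and 5 and 109.4, 104.7 and 162.9 in Ntsr2 AKO mice 3, 4 and 5. All 3 Ntsr2 AKO mice lay below all 3 control mice, and the lowest control mouse was 2.38 times the highest Ntsr2 AKO mouse. Mean levels of 465.7 ± 76.1 and 125.7 ± 32.4 (SD, n = 3 mice each) gave a log2 fold change of -1.90 (standard error 0.26, 95% interval -2.51 to -1.29). These values rest on at least 421 reads in each control mouse and at most 161 reads in each Ntsr2 AKO mouse. The exact Poisson 95% intervals of the reads, which cover counting error only, were 382 to 463 for the lowest control mouse and 137 to 188 for the highest Ntsr2 AKO mouse, so the gap was larger than counting error.

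The tools differed on whether Selp passed a threshold over all genes. In limma the adjusted p of Selp was 0.349 (unadjusted p = 1.73e-04, the eighth smallest of 16157 genes tested), and in edgeR's quasi-likelihood test on the recovered reads the adjusted p was 0.502. In DESeq2 on the same reads the adjusted p was 2.53e-07, with a log2 fold change of -1.88. Over the 18 alternatives the log2 fold change of Selp stayed between -2.10 and -1.78. It was -2.05 among the 3 mice with little muscle RNA and -1.84 among the 3 mice with much of it, each with a single mouse in 1 group. Of the 16157 genes tested, 173 (1.07%) had a lower log2 fold change than Selp.

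E-selectin is made almost solely by activated endothelium and slows rolling leukocytes. Sele (chromosome 1, 164048234 to 164057677, plus strand) was the least abundant of the 9 genes. Its normalized counts were 73.6, 91.8 and 85.4 in control mice 3, 4 and 5 and 75.4, 21.8 and 49.6 in Ntsr2 AKO mice 3, 4 and 5. Ntsr2 AKO mouse 3 was at the level of the control mice, and the other two Ntsr2 AKO mice were below all of them. The means of 83.6 ± 9.22 and 48.9 ± 26.8 (SD, n = 3 each) gave -0.92 on the log2 scale (standard error 0.50, 95% interval -2.10 to 0.26, limma adjusted p = 0.643). Ntsr2 AKO mouse 4 had 21 reads of Sele, for which counting error alone gives an exact Poisson 95% interval of 13 to 32.1 reads. Without this mouse the log2 fold change was -0.44, and without Ntsr2 AKO mouse 3 it was -1.31. Among the 3 mice with little muscle RNA it was -0.12 and among the 3 mice with much of it -1.35.

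ICAM-1 is the endothelial partner of the leukocyte integrins LFA-1 and Mac-1, and it is also found on macrophages and stromal cells. Icam1 (chromosome 9, 21015985 to 21028817, plus strand) had 1032, 1185 and 747.3 normalized counts in control mice and 754.5, 685.1 and 534.4 in Ntsr2 AKO mice. Control mouse 5 and Ntsr2 AKO mouse 3 were almost level, and apart from this pair the groups did not overlap. The mean was 988 ± 222 in control mice against 658 ± 113 (SD, n = 3 each), and the log2 fold change -0.57 (standard error 0.22, 95% interval -1.11 to -0.04). The unadjusted p from limma was 0.0381 and the adjusted p 0.580. With 1 mouse left out the unadjusted limma p ran from 0.00929 (without control mouse 5) to 0.121 (without control mouse 4). The direction was the same under all 18 alternatives, with log2 fold changes from -0.76 to -0.30. It was -0.55 among the mice with little muscle RNA and -0.30 among those with much of it.

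VCAM-1 binds the integrin VLA-4 of monocytes and lymphocytes, and besides endothelium it is made by stromal cells and by some macrophages. Vcam1 (chromosome 3, 116109949 to 116129688, minus strand) had 833.8, 2411 and 1139 normalized counts in control mice and 1292, 1651 and 1371 in Ntsr2 AKO mice. The Ntsr2 AKO mice lay close together within the range of the control mice, which was set by a low mouse 3 and a high mouse 4. The means of 1461 ± 837 and 1438 ± 189 (SD, n = 3 each) gave a log2 fold change of 0.12 (95% interval -0.77 to 1.0, limma adjusted p = 0.946). The sign depended on 1 mouse, since the log2 fold change was -0.21 without control mouse 3 and 0.55 without control mouse 4. A difference of the size seen for Icam1 is therefore within the interval of Vcam1 in either direction.

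**Figure D1:**
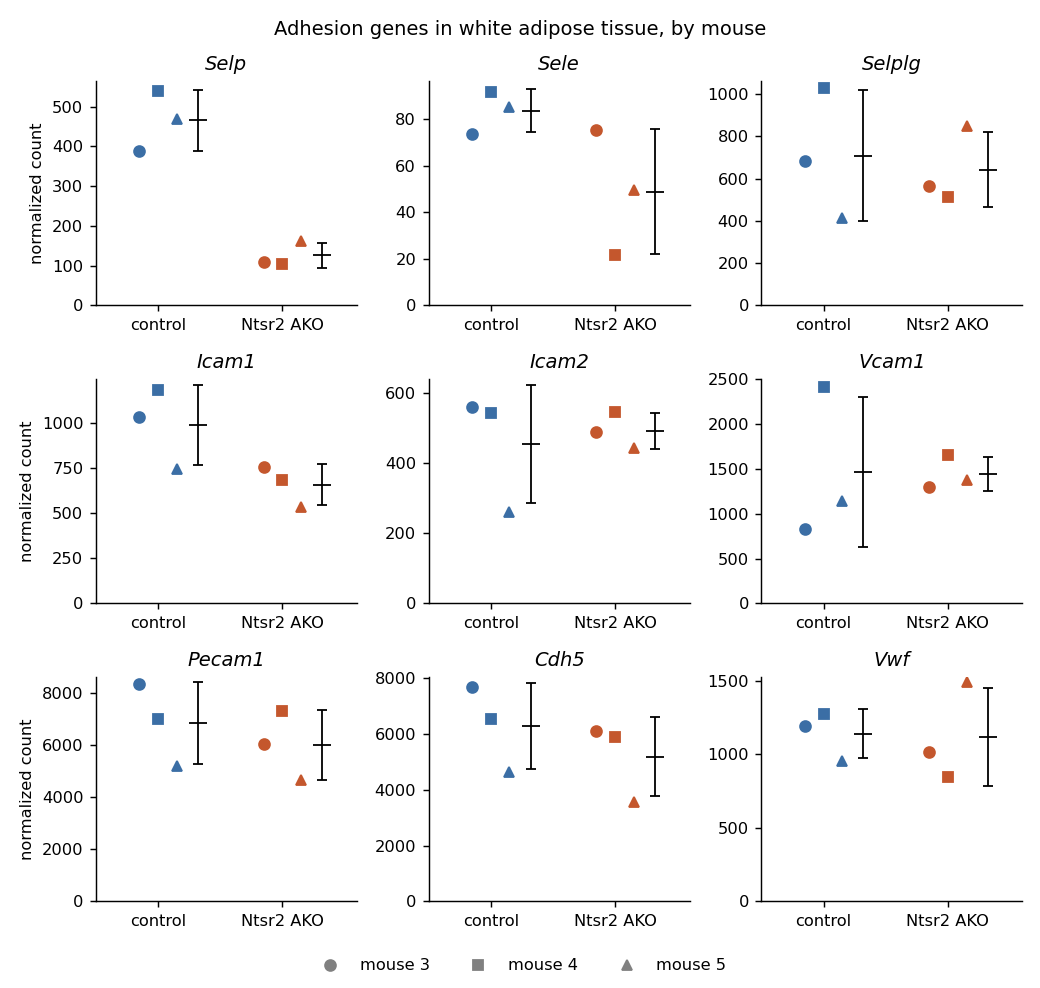
Normalized counts (y axis, from 0) of the 9 adhesion genes in control mice (blue) and Ntsr2 AKO mice (orange), with 1 point a mouse, symbols for mice 3, 4 and 5, and the mean ± SD of 3 mice as the black bar. The groups are apart in Selp (387.5 to 539.6 against 104.7 to 162.9), nearly apart in Icam1, and overlap in the other 7 genes.

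PSGL-1 is the main P-selectin ligand and is carried by nearly all leukocytes. Selplg (chromosome 5, 113818536 to 113832644, minus strand) had 682.0, 1030 and 413.5 normalized counts in control mice and 564.6, 515.1 and 847.1 in Ntsr2 AKO mice. The control mice spanned the whole range of the Ntsr2 AKO mice. The log2 fold change was -0.08 (standard error 0.36, 95% interval -0.93 to 0.78, limma adjusted p = 0.964), with means of 708 ± 309 and 642 ± 179 (SD, n = 3 each). It was 0.24 without control mouse 4, the mouse with the highest value. The same mouse had the highest sum of 19 leukocyte markers (71647), and the sums lay between 26861 and 71647 (control) and between 24848 and 57111 (Ntsr2 AKO). Across the 6 mice Selplg followed Vwf (Pearson r = 0.83, and 0.83 after the group means were removed), which is a description over 6 mice.

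Constitutive endothelial genes were taken as a reference for the vessel RNA of each sample. They did not all vary alike, since over the 6 mice Vwf had r = -0.27 with Pecam1 and -0.29 with Cdh5. Pecam1 (PECAM-1, a junction protein used in transmigration; chromosome 11, 106654217 to 106750628, minus strand) had 8355, 7006 and 5218 normalized counts in control mice and 6031, 7332 and 4673 in Ntsr2 AKO mice. Cdh5 (VE-cadherin, the adhesive protein of endothelial adherens junctions; chromosome 8) had 7696, 6528 and 4648 in control mice and 6109, 5876 and 3555 in Ntsr2 AKO mice. The ranges of both genes overlapped between the groups and were shifted toward lower values in Ntsr2 AKO mice, with 2 control mice above every Ntsr2 AKO mouse in Cdh5 and 1 in Pecam1. Both genes moved together from mouse to mouse (r = 0.93, and 0.93 within groups). The log2 fold change was -0.19 (95% interval -0.73 to 0.36) for Pecam1 and -0.29 (95% interval -0.93 to 0.35) for Cdh5, with limma adjusted p of 0.832 and 0.785.

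Icam2 encodes ICAM-2, an integrin ligand of resting endothelium and platelets, and lies on the same strand of chromosome 11 as Pecam1 (106377656 to 106388075). It had 560.5, 542.7 and 260.0 normalized counts in control mice and 489.3, 546.2 and 443.3 in Ntsr2 AKO mice. Control mouse 5 stood far below the other five mice, and without it the log2 fold change of 0.19 (95% interval -0.56 to 0.95, limma adjusted p = 0.881) became -0.17. Vwf encodes von Willebrand factor, the platelet-binding protein that shares the storage granules of P-selectin (chromosome 6, 125546774 to 125686679). It had 1192, 1276 and 955.4 normalized counts in control mice and 1014, 846.8 and 1491 in Ntsr2 AKO mice, and so the highest and the lowest values were both in Ntsr2 AKO mice. Its log2 fold change was -0.06 (95% interval -0.62 to 0.50, limma adjusted p = 0.958). Control mouse 5, which held the most skeletal muscle RNA, was the lowest control mouse in all 4 constitutive genes; the part of the muscle RNA in these values was not tested. Among the mice with little muscle RNA the log2 fold changes of Icam2, Pecam1, Cdh5 and Vwf were -0.17, -0.34, -0.21 and -0.28, and among those with much of it 0.92, 0.17, -0.02 and 0.23. For Vcam1 they were -0.13 and 0.40, and for Selplg -0.57 and 0.67.

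Against all genes tested, the 9 adhesion genes stood as follows. In limma 0 of the 9 genes passed an adjusted p of 0.05, as did 0.00619% of all genes in the lower direction (Egr1, an immediate early gene, alone) and 0% in the higher direction. An unadjusted p under 0.05 was reached by 2 of the 9 genes in the lower direction (Selp and Icam1), against 5.27% of all genes, and by 0 in the higher direction, against 3.08%. The groups did not overlap for 1 of the 9 genes in the lower direction (Selp), against 8.16% of all genes, and for 0 in the higher direction, against 6.82%. DESeq2 called 1 of the 9 genes lower (Selp), against 0.964% of all genes, and 0 higher, against 0.416%. The log2 fold change was negative for 7 of the 9 genes, with a median of -0.19 beside -0.01 over all genes. Because the comparison was used to choose the genes, nothing is read from these counts.

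**Figure D2:**
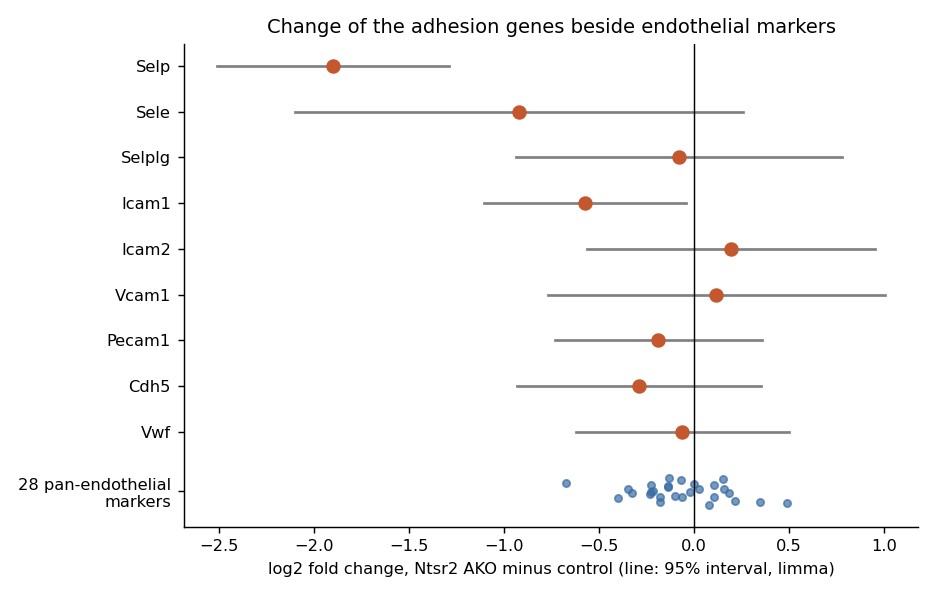
Log2 fold change (Ntsr2 AKO minus control, x axis) of the 9 adhesion genes (orange points) with 95% intervals from limma (gray lines), above the 28 pan-endothelial markers (blue points, 1 a gene, shifted up and down for legibility). Selp at -1.90 lies below every pan-endothelial marker, which range from -0.67 to 0.49, and the intervals of all genes but Selp and Icam1 cross 0.

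A lower level of an endothelial gene in bulk tissue can mean fewer cells of that type or less RNA per cell, and these cannot be told apart here. The amount of vessel RNA could only be judged roughly, by genes that endothelium makes throughout, since Vwf did not vary with Pecam1 and Cdh5. The mean log2 level of Icam2, Pecam1, Cdh5 and Vwf differed by -0.09 (Ntsr2 AKO minus control), and that of 28 other pan-endothelial markers by -0.06. The 28 markers had a median log2 fold change of -0.09, 17 were negative, and none reached an unadjusted p under 0.05 in limma (0 past the adjusted threshold in limma or DESeq2). The 3 with the smallest unadjusted p were Clec14a (log2 fold change 0.49), Flt1 (-0.40) and Rasip1 (-0.67), which point in both directions. Without 1 mouse the median of the 28 markers ran from -0.29 (without control mouse 5) to 0.11 (without Ntsr2 AKO mouse 5). It was -0.10 among the mice with little muscle RNA and 0.27 among those with much of it.

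Each inducible gene was then set against the mean log2 level of the 4 constitutive genes in the same mouse. Relative Selp was -2.72, -2.13 and -1.74 in control mice 3, 4 and 5 and -4.23, -4.32 and -3.47 in Ntsr2 AKO mice 3, 4 and 5 on the log2 scale. The groups stayed apart, with a difference of -1.81, and they also stayed apart against the 28 pan-endothelial markers, Cdh5 alone or Pecam1 alone (differences of -1.83, -1.61 and -1.71). Relative Icam1 was -1.31, -1.0 and -1.07 in control mice and -1.45, -1.62 and -1.77 in Ntsr2 AKO mice. On this scale the groups of Icam1 no longer overlapped, with a difference of -0.49. They were also apart against the 28 pan-endothelial markers (-0.51), but they did overlap against Cdh5 alone or Pecam1 alone (-0.28 and -0.39). Relative Sele, Vcam1 and Selplg overlapped between the groups, with differences of -0.84, 0.20 and 0.01. These are descriptions of genes chosen with the same comparison known, and no test was made.

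**Figure D3:**
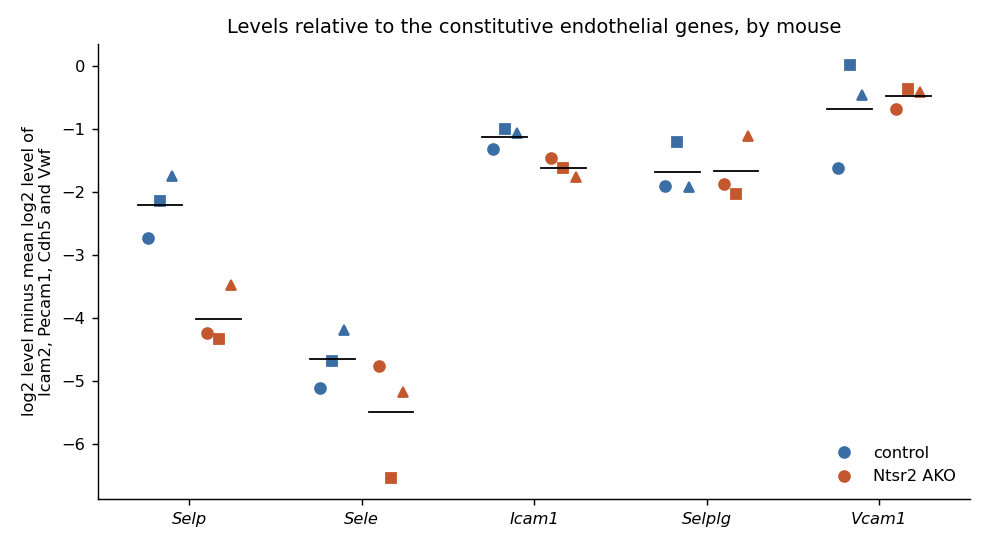
Log2 level of each gene minus the mean log2 level of Icam2, Pecam1, Cdh5 and Vwf in the same mouse (y axis), for control (blue) and Ntsr2 AKO (orange) mice, with a circle, square and triangle for mice 3, 4 and 5 and a black line at the group mean. Selp and Icam1 are apart between the groups, while Sele, Selplg and Vcam1 overlap.

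Levels of different genes were compared per kb of the longest coding transcript. In control mice the order of the means was Pecam1 (1993 normalized counts per kb), Cdh5 (1575), Vcam1 (421), Icam1 (390), Selplg (382), Icam2 (354), Selp (135), Vwf (129) and Sele (28.7). Of neighbours in this order, Cdh5 was apart from Vcam1, Icam2 from Selp and Vwf from Sele, and the ranges of the other neighbours overlapped. In Ntsr2 AKO mice the order was Pecam1 (1747), Cdh5 (1297), Vcam1 (415), Icam2 (384), Selplg (346), Icam1 (260), Vwf (126), Selp (36.6) and Sele (16.8). Selp, level with Vwf in control mice, was apart from and below Vwf in Ntsr2 AKO mice, and Icam1 moved from the fourth to the sixth place. With the union of all exons as the length, Cdh5 stood above Pecam1, Icam2 took the third place in both groups and Selp was apart from and above Vwf in control mice, so the order among genes depends on the transcript assumed, while a ratio between groups does not.

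**Figure D4:**
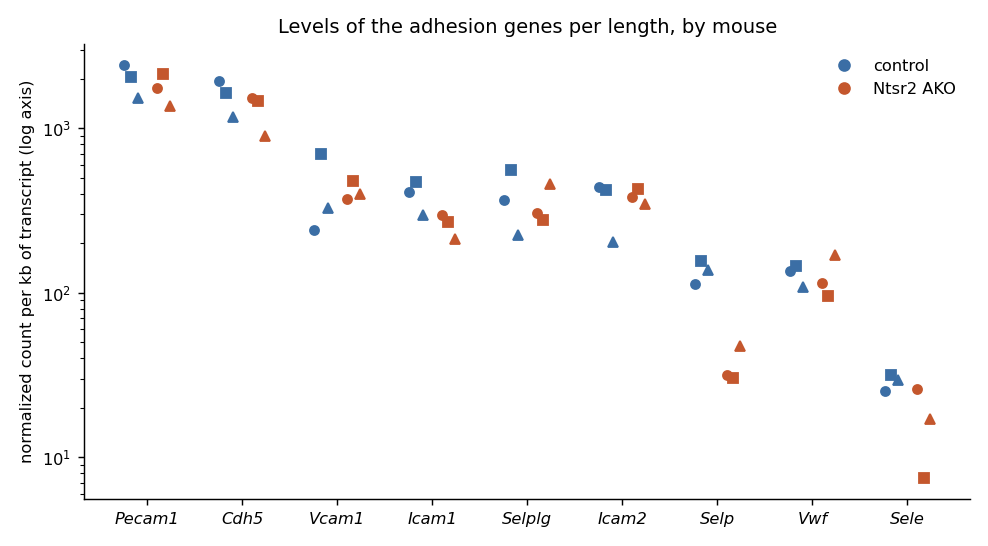
Normalized counts per kb of the longest coding transcript (y axis, log scale) for the 9 adhesion genes, with 1 point a mouse (circle, square and triangle for mice 3, 4 and 5) in control (blue) and Ntsr2 AKO (orange) mice. Pecam1 and Cdh5 stand above all other genes, and Selp, level with Vwf in control mice, lies below it in Ntsr2 AKO mice.

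Sele and Selp lie on the same strand of chromosome 1, with 102 kb from the start of Sele to the end of Selp, and F5 (coagulation factor V) begins 1.81 kb after Selp. F5 was low, with group means of 29.5 ± 14.4 (control) and 18.1 ± 13.4 (Ntsr2 AKO; SD, n = 3 each) normalized counts, and overlapped. Mettl18 (log2 fold change 0.28), upstream of Sele, and Slc19a2 (-0.21), downstream of F5, overlapped as well.

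Genes that take part in the same steps were counted from lists. These lists were chosen with earlier results of these data known, so their counts are a description. Beside them, 5.27% of all genes tested were lower at an unadjusted p under 0.05 in limma, and 3.08% were higher. For selectin ligands and the enzymes that build them, 18 of 20 genes were tested, the median log2 fold change was -0.19, and 1 reached an unadjusted p under 0.05, Cd44, which was lower. CD44 is a hyaluronan receptor that also binds E-selectin, and Cd44 had 2230, 4967 and 3653 normalized counts in control mice and 1410, 561.8 and 2292 in Ntsr2 AKO mice, which gave a log2 fold change of -1.49 (limma adjusted p = 0.566). Tpst1, an enzyme that sulfates PSGL-1, had a log2 fold change of 0.35, and Fut7, which adds the fucose of selectin ligands, 1.57 from low means of 5.59 and 18.4 normalized counts. In both the groups were apart, without an unadjusted p under 0.05 in limma. For the integrins that bind ICAM and VCAM proteins, listed with their regulators, 12 of 13 genes tested were negative (median -0.21). An unadjusted p under 0.05 was reached by 2, both lower. These were Itgal, the alpha chain of LFA-1, with 407.7, 370.4 and 259.0 against 176.5, 208.3 and 129.5 normalized counts (log2 fold change -1.01, limma adjusted p = 0.522), and Itgb2, its beta chain (-0.95, adjusted p = 0.593). Of 18 other junction and transmigration genes tested, 1 reached that p, Alcam, a ligand of CD6 on T cells (-0.46), and the median was -0.17. Without 1 mouse the ligand median ran from -0.27 to -0.10 (without Ntsr2 AKO mouse 5 and control mouse 3), the integrin median reached -0.42 (without control mouse 5), and the junction median ran from -0.29 (without control mouse 5) to 0.02 (without control mouse 3). In these 3 lists no gene passed the adjusted threshold in limma or in DESeq2.

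Endothelial genes were also split by vessel type. The venous list had a median of -0.46 with 10 of 12 genes negative. At an unadjusted p under 0.05 in limma, 3 genes were lower (Selp, Tmem252 and Il1r1), beside 5.27% of all genes, and 0 higher, beside 3.08%. Selp, Sele, Vcam1 and Vwf belong to this list and were chosen with this comparison known, so nothing is read from its counts. Il1r1 is also in the list of cytokines and receptors given below. Tmem252, a membrane protein gene listed as a venous marker, had 489.6, 425.0 and 298.3 normalized counts in control mice and 149.7, 172.1 and 129.5 in Ntsr2 AKO mice. Its groups did not overlap (log2 fold change -1.40, limma adjusted p = 0.499), and DESeq2 called it (adjusted p = 6.68e-04). The median of the venous list was -0.15 among the mice with little muscle RNA, -0.57 among those with much of it and -0.27 without Ntsr2 AKO mouse 4. Its genes differed among themselves, since Nr2f2, a transcription factor of venous identity, had a log2 fold change of 0.11 and Ephb4, a venous receptor, -0.04 (both named after their values were seen). The 13 arterial genes had a median of -0.15 and the 7 lymphatic genes -0.55, with no gene at an unadjusted p under 0.05 in limma. With 1 mouse left out, the arterial median ran from -0.31 (without control mouse 5) to 0.03 (without control mouse 3), and it was -0.04 without Ntsr2 AKO mouse 3. The lymphatic median was -0.23 without control mouse 5, -0.32 without Ntsr2 AKO mouse 4 and -0.33 without control mouse 3. The 11 capillary genes of fat had a median of 0.25 with 1 negative, and none reached that p either. That median was 0.06 without Ntsr2 AKO mouse 4, 0.10 without control mouse 5, and 0.42 without control mouse 3 or without Ntsr2 AKO mouse 5. Their first by p were Btnl9 (0.43), Aqp7 (0.43) and Lpl (0.38). Lpl and Aqp7 are also made by adipocytes, and Lpl is in the adipocyte list too, so the capillary median does not read endothelium alone.

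Platelets store P-selectin and leukocytes carry its ligand, so both were looked at beside Selp. Of 13 platelet genes 10 were tested, with a median of -0.65 and 8 negative, and none reached an unadjusted p under 0.05 in limma. Without 1 mouse that median ranged from -1.17 (without control mouse 3) to -0.31 (without control mouse 4). The summed level of the platelet list was 2880 to 5338 normalized counts in control mice and 2634 to 4137 in Ntsr2 AKO mice. Pf4, a platelet chemokine that macrophages also make, had the highest mean in the list and a log2 fold change of -0.03, and Itgb3, a platelet and endothelial integrin chain, -1.06 with the groups apart. The 19 leukocyte genes had a median of -0.30 with 16 negative and none at an unadjusted p under 0.05, with a median of -0.47 without control mouse 5 and -0.49 without Ntsr2 AKO mouse 5, and the most abundant were Lyz2 (-0.18), Csf1r (-0.04) and Laptm5 (-0.16). The part of platelets and leukocytes in the levels of Selp was not tested. The 12 pericyte and smooth muscle genes had a median of -0.07 (0.04 after quantile normalization, and up to 0.11, without control mouse 5, when 1 mouse was left out), the 12 adipocyte genes 0.00, the 12 skeletal muscle genes 1.30 and the 3 mesothelial genes tested -1.64. The muscle median took either sign with 1 mouse left out (-0.85 without control mouse 3, -0.90 without control mouse 4, -0.50 without Ntsr2 AKO mouse 5, 0.06 without Ntsr2 AKO mouse 4, 4.84 without Ntsr2 AKO mouse 3 and 6.01 without control mouse 5), and so gives no direction. The mesothelial median was -0.52 without control mouse 3 and -1.0 without Ntsr2 AKO mouse 4. Of these 4 lists only the mesothelial one held a gene at an unadjusted p under 0.05 (Krt19, log2 fold change -1.64).

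The endothelial genes Selp, Sele, Icam1 and Vcam1 are classical targets of TNF, IL-1 and NF-kB, and lists of that pathway were counted. The lists were chosen with earlier results of this comparison known, so nothing is read from their counts. Of 24 cytokine-induced NF-kB target genes, 22 were negative, with a median of -0.70, and 15 reached an unadjusted p under 0.05 in limma, all lower, beside 5.27% of all genes. None passed the adjusted threshold in limma, and DESeq2 called 7, all lower, beside 0.964% of all genes. The median was -0.575 among the 3 mice with little muscle RNA and -0.70 among the 3 mice with much of it. Ccl2, the chemokine that draws monocytes, had 1110, 1135 and 942.0 normalized counts in control mice against 196.1, 123.3 and 210.5 (log2 fold change -2.61, limma adjusted p = 0.0643, DESeq2 adjusted p = 4.22e-19). Nfkb2, a subunit of NF-kB that is itself a target, had 1670, 1404 and 1446 against 1022, 881.0 and 921.0 (-0.68, limma adjusted p = 0.499). Bcl3, a nuclear partner of NF-kB, had 1383, 980.1 and 1460 against 535.7, 151.3 and 328.9 (-2.07, limma adjusted p = 0.499). In these 3 genes, as in Selp, the groups were apart.

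Of 21 cytokines and receptors that act on endothelial adhesion molecules, 18 were tested, with a median of -0.69. Among the mice with little muscle RNA the median was -0.34, and among those with much of it -0.90. At an unadjusted p under 0.05 in limma, 7 were lower, beside 5.27% of all genes, and 0 higher, beside 3.08%. DESeq2 called 1 lower, Il4ra, beside 0.964% of all genes. The list shares Tnf, Il1b and Il6 with the NF-kB list. It was chosen with earlier results of these data known as well, and nothing is read from its counts. The receptor genes with the smallest p were Tnfrsf1b (TNF receptor 2, log2 fold change -0.62), Il4ra (the IL-4 receptor, -1.72) and Ifngr2 (an interferon gamma receptor chain, -0.68). Tnf itself, named after its values were seen, had 69.9, 58.8 and 61.4 normalized counts in control mice against 14.5, 16.6 and 39.5 (log2 fold change -1.53, limma adjusted p = 0.546).

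Immediate early genes, which respond within minutes to stimulation and to the handling of tissue, were counted as well. Their list was likewise chosen with earlier results of these data known, so the counts are a description. All 12 were negative, with a median of -1.29. An unadjusted p under 0.05 in limma was reached by 8, all lower, beside 5.27% of all genes, and DESeq2 called 5, beside 0.964%. Egr1 alone passed the adjusted threshold in limma. The median was -0.89 among the mice with little muscle RNA and -1.77 among those with much of it. Their summed level was 14355 to 23003 normalized counts in control mice and 7602 to 9162 in Ntsr2 AKO mice. Egr1 had 2411, 2020 and 2627 normalized counts in control mice against 513.0, 407.3 and 507.0 (log2 fold change -2.30, limma adjusted p = 0.0442). The part of this difference, and of the depth difference between the groups, in the levels of Selp and the NF-kB targets was not tested.

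**Figure D5:**
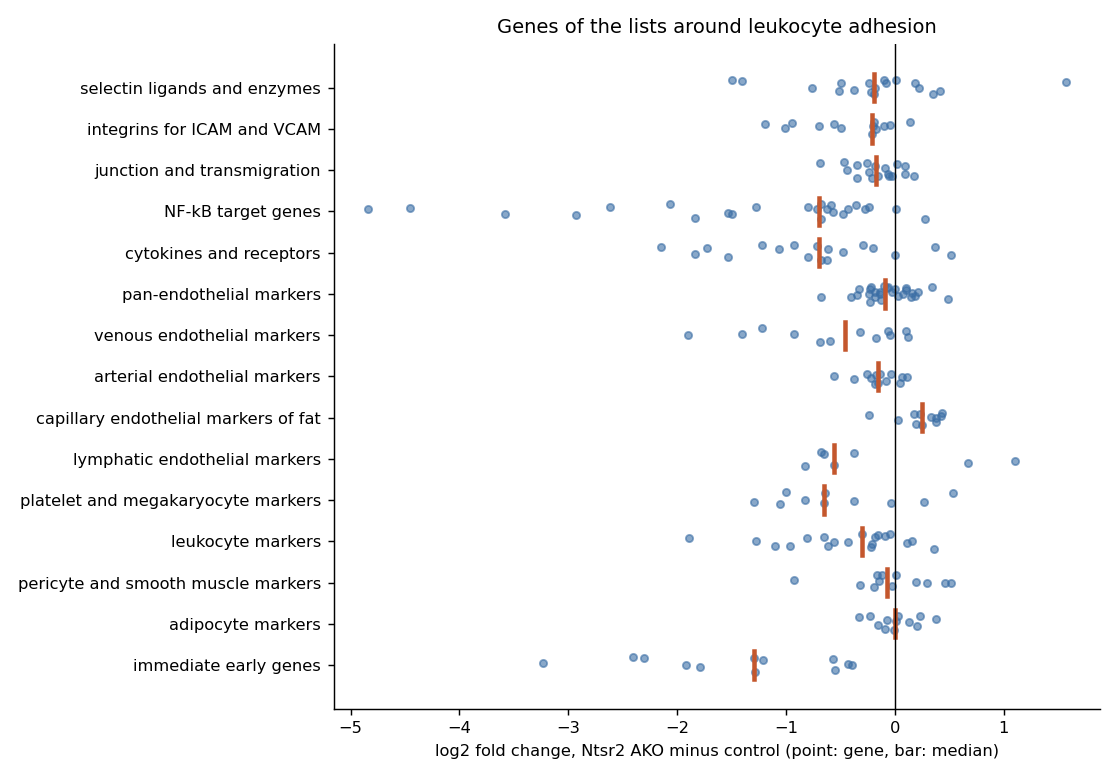
Log2 fold change (Ntsr2 AKO minus control, x axis) of every tested gene (blue points) in 15 lists around leukocyte adhesion, with the median of each list (orange bar); points are shifted up and down for legibility. NF-kB targets (median -0.70), cytokines and receptors (-0.69) and immediate early genes (-1.29) lie mostly below 0, while pan-endothelial (-0.09) and adipocyte (0.00) genes centre near 0.

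The pattern of Selp across the mice was compared with that of the 12565 other genes whose normalized count averaged 100 or more. The genes most like it by Pearson r over the 6 mice were Smug1 (0.99, a DNA glycosylase), Nemf (0.99, a ribosome quality control factor), Rell1 (0.98), Tmem173 (0.98, the innate sensor adaptor STING) and Sept7 (0.98, a septin). Selp differs between the groups, so any gene that does so evenly has a high r. Tmem173 had the widest difference of the 5, with 1011, 1071 and 1129 normalized counts in control mice against 513.0, 410.5 and 571.8 (log2 fold change -1.11, limma adjusted p = 0.359), and Smug1 the smallest, with a log2 fold change of -0.12. Among the 5 genes most like Pecam1 were Anxa5, Ccdc85a, Lta4h and F2r (r = 0.98 to 0.99), none of which was apart between the groups.

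The 9 genes did not vary as 1 block across mice. Selp and Sele had r = 0.70 over the 6 mice and 0.32 after the group means were removed. Selp and Icam1 had 0.67 and -0.37, and Selp and Pecam1 0.15 and -0.72. Icam1 followed Cdh5 (0.82, and 0.87 within groups). Within the groups Selp had -0.77 with Cdh5 but 0.75 with Vwf, and Icam1 had -0.07 with Vwf. Of the constitutive genes, Icam2, Pecam1 and Cdh5 varied alike within the groups (r from 0.75 to 0.93). Vwf did not vary with them (0.23 with Icam2, -0.33 with Pecam1 and -0.37 with Cdh5). The points of each r are 6 mice that share the size factors of their libraries, and with 3 mice a group these values are a description.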

How the data were processed

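RNA from WATs of 3 control and 3 Ntsr2 AKO mice was sequenced after poly-A selection with a NEBNext Ultra kit. The authors trimmed reads with Trimmomatic, aligned them with HISAT2 to mm10 and quantified them with StringTie, and they deposited normalized counts (a signal, the read count of a gene divided by a size factor); tool versions are not given in the sources used here. All 6 columns of values were used.

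The scale of analysis was log2(normalized count + 1). The 16157 of 21456 genes whose normalized count averaged 10 or more entered limma 3.58.1 under R 4.3.3 (moderated by eBayes along the trend of variance with mean, without covariates, two-sided), followed by Benjamini-Hochberg adjustment over all of them and a threshold of 0.05. Fold changes are on this scale, and they understate the change of low genes. The labels do not say more on how the mice were related. The p-values set the difference between genotypes against the spread within groups, and they take the 6 mice as independent. The unit was not raw counts, so edgeR 4.0.16 and DESeq2 1.42.0 were alternatives, run on reads recovered by division with a tolerance of 0.1. The other alternatives were pseudocounts of 0.1 and 5, a filter at 50 or none, quantile normalization, TMM scaling, no trend, the replicate number as a block and the omission of each mouse. The split by skeletal muscle RNA was added after the data were seen. The fits were tested on simulated counts with known changes.

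The 9 genes and the 17 lists were chosen with earlier results of these data known. Named genes are the 9 genes, Ntsr2, the 5 genes most like Selp and Pecam1 by r among genes with a mean of at least 100, and from each list the genes past the threshold, or else the 3 with the smallest p, and for cell types also the 3 with the highest mean; genes near Sele and Selp and those said so were named in addition. Some genes are not reported here. The markers Ackr1, Adgrl4, Adgre1, Nectin2 and Nectin3 were found under older symbols, and 2 list genes were not matched. Positions and transcript lengths are from GENCODE M21 on GRCm38. Authors' lipid, protein and qRT-PCR data were not analysed here.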

Additional observations from a re-analysis of the deposited data

How the results depend on the processing

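The log2 fold changes of Selp, Sele, Icam1, Cdh5 and Ntsr2 kept their sign under all 18 alternatives. DESeq2 alone brought Selp (-1.88) and Ntsr2 (-4.72) past the adjusted threshold. The number of genes past that threshold was 1 in limma, 219 in DESeq2 (153 lower, 66 higher), and 0 without a filter, without the mean-variance trend, with the replicate block, in edgeR (1323 genes at an unadjusted p under 0.05), without any 1 mouse (0 to 0), and within the mice with little or with much muscle RNA. The number at an unadjusted p under 0.05 was 1349 (852 lower, 497 higher), 646 without Ntsr2 AKO mouse 4 to 1690 without Ntsr2 AKO mouse 3, 252 within the mice with little muscle RNA and 1956 within those with much of it (1442 lower, 514 higher); there the lone mouse of a group is assumed to vary like the others. The lower and higher genes numbered 612 and 633 under quantile normalization, after TMM scaling 785 and 557, without control mouse 5 552 and 503, and without the trend 724 and 601.

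Vcam1 reversed in edgeR (-0.015), in DESeq2 (-0.018) and among the mice with little muscle RNA (-0.13), and without 1 mouse it ranged from -0.21 to 0.55. Icam2 reversed among the mice with little muscle RNA (-0.17, against 0.92 among those with much of it) and ranged from -0.17 to 0.39 without 1 mouse. Among the mice with much muscle RNA, Selplg (0.67), Pecam1 (0.17) and Vwf (0.23) reversed. Without 1 mouse Selplg ranged from -0.42 to 0.24 and Vwf from -0.29 to 0.12. The cause of these changes was not tested.

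Control and Ntsr2 AKO mice share the numbers 3, 4 and 5, but the deviations of same-numbered mice had correlations across genes of 0.45, -0.24 and 0.41, and not every mouse correlated best with its own number, so the numbers were not taken as pairs. With the replicate block 1303 genes had an unadjusted p under 0.05, and the block changed no call of the 9 genes. Sele had the fewest reads of the 9 genes, 21 to 89 a mouse.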
